A study of Mus musculus with 7 samples.

Results

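The enzymes that make foreign and endogenous small molecules soluble were read out in whole mouse kidneys at embryonic stage E15.5. They were taken by name from the 16167 genes listed: cytochrome P450 genes (CYP), UDP-glycosyltransferase genes (UGT), glutathione S-transferase genes (GST) and cytosolic sulfotransferase genes (SULT). The names matched 63 listed genes, of which 62 are described here, namely 27 CYP, 9 UGT, 18 GST and 8 SULT genes. Membership rests on gene names and on no measured value, though the set was chosen with earlier results of these data known.

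The 4 mutant libraries are from Six2-Cre; Irx3/5(loxP/loxP) embryos, in which floxed Irx3 and Irx5 alleles are on both chromosomes. The 3 control libraries are from littermates of the genotype Irx3/5(loxP/+), which carry a floxed allele on 1 chromosome; their genotype label reads WT and names no Cre. Six2-Cre is active in nephron progenitors, whose descendants form the podocytes and the proximal, loop and distal tubule, but not the ureteric tree or the stroma. Deletion and Cre cannot be told apart in this design. The number of embryos behind a library is not stated, and p-values therefore refer to the spread among libraries, which may be technical.

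CYP enzymes insert oxygen into lipids, steroids, vitamins and drugs, drawing electrons from reductases. UGT enzymes attach glucuronic acid or another sugar, SULT enzymes attach sulfate, and GST enzymes attach glutathione, which prepares the products for excretion. In the adult kidney much of this chemistry takes place in the proximal tubule, which also secretes the conjugates into urine. Many of the genes stand in rows of close relatives that arose by duplication, and the Ugt1a genes have separate first exons joined to a common set of later exons.

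Depth, the sum of recovered reads, ran from 45539155 to 53497462 reads in mutants and from 40511920 to 69028943 reads in controls. Irx3, a targeted gene, had 3.98 to 6.75 FPKM (fragments per kilobase of gene, scaled to the mapped fragments of the library) in mutants and 12.7 to 14.7 FPKM in controls. Irx5, also targeted, had 0.895 to 2.05 FPKM in mutants and 1.36 to 1.59 FPKM in controls, and which part of either gene is floxed is not given in the sources used here. Mutant replicate 3 stood apart from the other libraries: its embryonic globin Hbb-y was at 10.5% of the adult globin Hbb-bs, against 1.38% to 2.24% in the other mutants and 1.34% to 3.45% in controls. Of the kidney's own cells, all 23 proximal tubule markers and all 7 nephron progenitor markers were listed. Of the 7 progenitor markers, all tested, 3 fell in mutants (Cited1, Meox1 and Uncx) and 1 rose (Crym). Of all tested genes 1.05% fell and 0.475% rose. Of 14 hepatocyte markers 13 were listed, and their summed level was 20.7 to 60.6 FPKM in mutants and 34.5 to 39.7 FPKM in controls. Of 13 adrenal markers 7 were listed, with a summed level of 33.1 to 39.8 FPKM in mutants and 43.3 to 47.3 FPKM in controls. This sum includes Fdx1, described below among the genes of electron transfer. Of the 4 adrenal markers tested, Mc2r rose in mutants and 0 fell, where 0.475% of all tested genes rose and 1.05% fell. In all 3 of the 4 had a log2 fold change below 0. At an unadjusted p under 0.05, limma counted 2 lower and 1 higher, where it counted 8.48% of all tested genes lower and 5.26% higher. The authors' deposited table calls 3 of the 7 listed lower, namely Fdx1, Akr1b7 and Pnmt, and 1 higher, Mc2r. Of all genes it calls 3.74% lower and 1.75% higher. Star, which brings cholesterol to steroid synthesis, was at 0.109 to 0.208 FPKM over the 7 libraries. Results on genes for which that library was far below the others are given with and without it.

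Genes with at least 1 FPKM in at least 3 libraries were tested with limma on log2(FPKM + 1), and a gene was called changed at a Benjamini-Hochberg adjusted p under 0.05 over all 13466 genes tested. Fold changes are log2 differences of mutant minus control on that scale, which understates the change of genes near 1 FPKM. Of the 62 enzyme genes 44 were tested. Cyp2j5, Cyp2j13, Ugt1a10 and Ugt2b37 fell in mutant kidneys and Cyp7b1 rose. The 4 genes that fell make 9.09% of the tested enzyme genes, where 1.05% of all tested genes fell, and the 1 that rose makes 2.27%, where 0.475% of all tested genes rose. Of the 44, 4 reached 1 FPKM in libraries of one group alone, Cyp2j13 and Ugt2b38 in controls and Cyp4b1 and Sult1e1 in mutants, so their presence in the test depended on that group. In a count added after seeing the data, of the other 40 enzyme genes 3 fell (7.5%) and 1 rose (2.5%), where 0.89% and 0.419% of the 13367 tested genes with the same property fell and rose. At an unadjusted p under 0.05, limma counted 12 of the 44 lower and 8 higher, where it counted 8.48% of all tested genes lower and 5.26% higher.

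Promoter sequences of 2 of the genes that fell are shown beside those of a neighbour in the same gene row whose level was close in mutants and controls, so that the letters can be read against the values below. Each runs from 250 bases before the annotated start to 50 bases after it, from RefSeq on GRCm38.p6, which is not the build of the expression table. Cyp2j5 was taken from chr4:96664070-96664369 and Cyp2j6 from chr4:96553602-96553901, both on the minus strand. Ugt1a10 was taken from chr1:88055161-88055460 and Ugt1a9 from chr1:88070529-88070828, both on the plus strand. Capitals mark a match, on either strand, to TGACNNNGC (the NRF2 element); lower-case sequences held none of the motifs searched.
Cyp2j5: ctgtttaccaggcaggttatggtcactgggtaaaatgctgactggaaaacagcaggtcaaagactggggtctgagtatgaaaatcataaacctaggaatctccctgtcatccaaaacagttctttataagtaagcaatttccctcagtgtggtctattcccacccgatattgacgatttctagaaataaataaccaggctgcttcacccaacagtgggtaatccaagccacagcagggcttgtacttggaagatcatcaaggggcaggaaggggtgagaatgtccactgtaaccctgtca
Cyp2j6: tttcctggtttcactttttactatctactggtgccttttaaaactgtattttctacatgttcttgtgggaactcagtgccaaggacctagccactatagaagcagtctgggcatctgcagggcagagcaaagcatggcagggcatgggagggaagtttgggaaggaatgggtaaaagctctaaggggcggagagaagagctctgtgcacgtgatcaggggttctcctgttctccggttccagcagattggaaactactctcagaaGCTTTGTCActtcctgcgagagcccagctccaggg
Ugt1a10: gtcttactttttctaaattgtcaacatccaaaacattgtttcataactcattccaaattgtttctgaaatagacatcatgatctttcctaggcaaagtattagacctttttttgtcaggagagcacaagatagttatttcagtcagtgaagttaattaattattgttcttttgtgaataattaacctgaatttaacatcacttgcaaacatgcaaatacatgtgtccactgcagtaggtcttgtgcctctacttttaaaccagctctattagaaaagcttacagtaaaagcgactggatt
Ugt1a9: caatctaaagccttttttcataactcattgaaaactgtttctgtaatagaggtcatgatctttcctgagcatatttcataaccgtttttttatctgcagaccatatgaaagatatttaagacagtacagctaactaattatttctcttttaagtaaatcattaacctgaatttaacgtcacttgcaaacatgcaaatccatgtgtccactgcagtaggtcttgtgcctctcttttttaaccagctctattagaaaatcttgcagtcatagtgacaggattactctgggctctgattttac
The Cyp2j6 promoter held 1 NRF2 element, beginning 15 bases after the start, and the Cyp2j5, Ugt1a10 and Ugt1a9 promoters held none.

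Promoters were at hand for 49 of the 62 enzyme genes, 61 promoters in all. The motif CAAAGTCCA of HNF4 was in 1 of the 61 (Sult1b1), against 0.475% of the 32851 promoters in the table and 0.403% of the 12897 promoters of tested genes. The AHR-ARNT core GCGTG was in 31.1% of the enzyme gene promoters, in 32.4% of all and in 50.3% of those of tested genes. The NRF2 element was in 6.56% of the enzyme gene promoters, in 12.4% of all and in 14.5% of those of tested genes. The searches covered both strands, and a match describes letters and no binding.

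**Figure D1:**
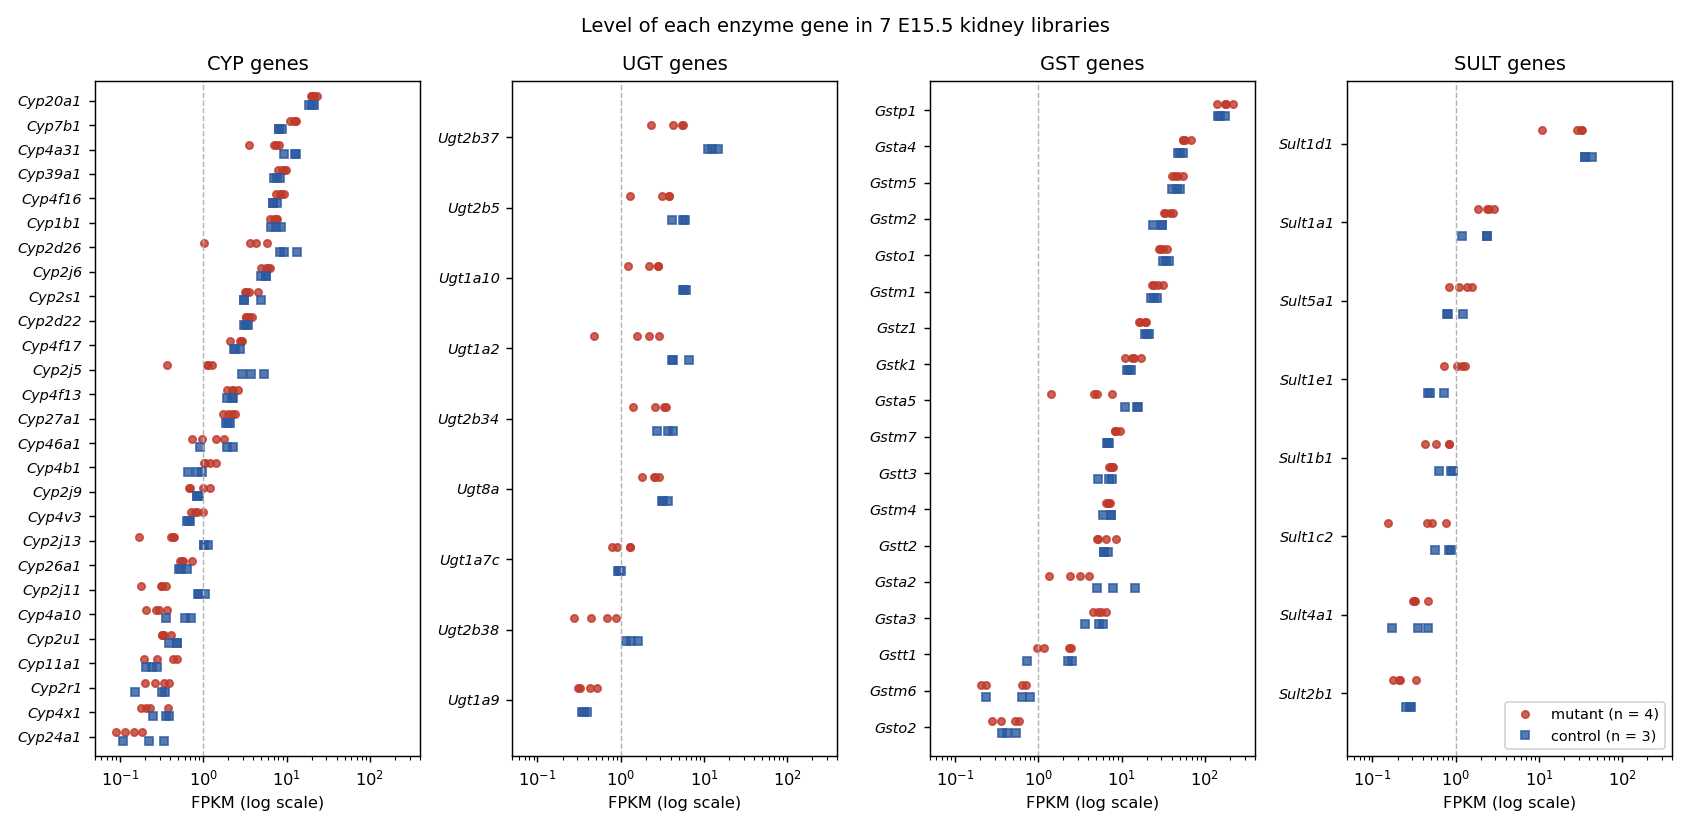
Level of each of the 62 enzyme genes in 7 libraries, in FPKM on a log axis, by family; circles are the 4 mutants, squares the 3 controls, and the dashed line is 1 FPKM. Gstp1 is the most abundant, and the mutant circles of Ugt2b37, Ugt1a10 and Cyp2j5 lie to the left of all control squares.

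The families differed widely in level. GST genes made up most of the enzyme transcripts: averaged over the 7 libraries, Gstp1, the pi-class transferase, stood at 170 FPKM and held 27.9% of the summed level of all 62 genes. Gsta4, which conjugates lipid peroxidation products, followed with 55.2 FPKM, and the mu-class genes Gstm5, Gstm2 and Gstm1 had 46.2, 32.9 and 25.8 FPKM. Sult1d1, which sulfates catecholamines in the mouse, held 31.2 FPKM, and Cyp20a1, an orphan CYP with no settled substrate, was the highest CYP gene with 20.6 FPKM. In all, 11 of the enzyme genes averaged 10 FPKM or more, 31 lay between 1 and 10 FPKM and 20 were under 1 FPKM. The plot of levels by gene shows these ranges. Gene lengths behind FPKM are as the authors set them, so levels between genes are per their unstated length.

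**Figure D2:**
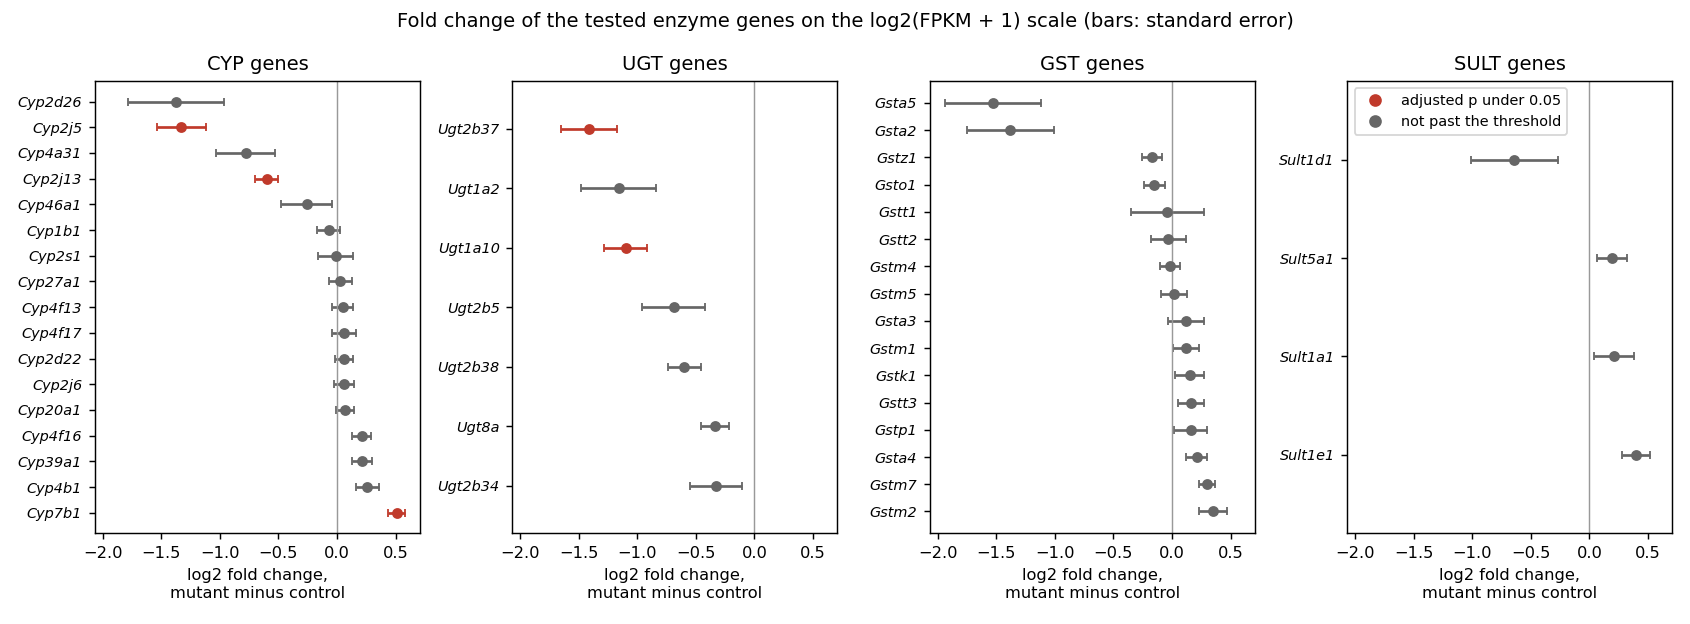
Log2 fold change (mutant minus control, log2(FPKM + 1) scale) of the 44 tested enzyme genes by family, with standard errors; red marks an adjusted p under 0.05. All 7 tested UGT genes lie left of 0, and in the other families most genes lie near 0.

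As a whole, the 44 tested genes had a median log2 fold change of 0.00, with 22 below 0, and the median of all tested genes was -0.00. The groups did not overlap and mutants were lower for 13 of the 44 (29.5%), against 8.61% of all tested genes. For 5 of the 44 (11.4%) the groups did not overlap and mutants were higher, against 5.93% of all tested genes. Without the 4 genes that reached 1 FPKM in one group alone, the counts were 11 of 40 lower (27.5%, against 8.34%) and 3 of 40 higher (7.5%, against 5.72%). Mutant replicate 3 was the lowest of the 7 libraries for 19 of the 44 (43.2%), against 17.2% of all tested genes. It was also the lowest library for all 13 genes with lower, separate mutants. For such genes the lowest library is always a mutant, so the 17.2% is no base for that count. The share among all tested genes with lower, separate mutants was not computed, and some of the 13 share sequence, as given below. The share of that library in these counts was not tested. In whole kidneys, fewer cells of a type and less RNA per cell cannot be told apart.

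Proximal tubule markers were lower in mutants, as were the enzyme genes that fell. Of the 21 markers tested, 4 fell (Slc3a1, Slc5a1, Slc22a6 and Apom), where 1.05% of all tested genes fell. In all 19 were below 0 and the median was -0.72. At an unadjusted p under 0.05, limma counted 16 lower and 1 higher, where it counted 8.48% of all tested genes lower. The groups did not overlap for 15 with lower mutants and 1 with higher mutants. Among all tested genes these shares were 8.61% and 5.93%. The authors' deposited table calls 10 of the 23 listed lower, where it calls 3.74% of all genes lower. The summed marker level was 97.6 to 201 FPKM in mutants and 238 to 289 FPKM in controls, with mutant replicate 3 lowest. The part of the markers in the enzyme results was not tested.

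The UGT genes moved most uniformly. Of 7 tested, 2 fell and none rose, where 1.05% of all tested genes fell and 0.475% rose. All 7 had a log2 fold change below 0, with a median of -0.69, where 50.8% of all tested genes were below 0. The summed UGT level was 22.1, 21.6, 9.84 and 20.8 FPKM in mutant replicates 1 to 4, against 40.7, 41 and 33.7 FPKM in control replicates 1 to 3. Mutant replicates 1, 2 and 4 lay close together and mutant replicate 3 far below them, and every mutant lay below every control. Expressed as a share of the control mean, the mutants held 57.4%, 56.2%, 25.6% and 54.1%. For the 9 listed UGT genes, mutant replicate 3 was the lowest library each time, as it was for 16.8% of all listed genes. Several of the 9 share sequence, as given below, so their values are not separate observations.

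Ugt2b37, of the UGT2B group that conjugates steroids and drugs, was the most abundant UGT gene. It had 5.41, 5.57, 2.28 and 4.26 FPKM in mutants, against 14.8, 12.5 and 11.2 FPKM in controls. The lowest control was above the highest mutant by more than the range within the mutants. The log2 fold change was -1.41 (SE 0.24, adjusted p = 0.0432), and the control mean was 2.94 times the mutant mean. Without mutant replicate 3 it was -1.19 (adjusted p = 0.0116). Ugt2b37 shares 18.3% of its 50-base words with other genes, mostly Ugt2b5.

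Its neighbours in the row of 10 Ugt2 genes were lower too, without passing the test. Ugt2b5 averaged 3.01 ± 1.2 FPKM in mutants and 5.23 ± 0.919 FPKM in controls (SD; n = 4 and 3 libraries), a log2 difference of -0.69 (SE 0.27, adjusted p = 0.301), or -0.44 without mutant replicate 3 (adjusted p = 0.173). Ugt2b38 averaged 0.567 ± 0.264 FPKM in mutants and 1.36 ± 0.233 FPKM in controls, a difference of -0.60 (SE 0.14, adjusted p = 0.0785), or -0.51 without mutant replicate 3 (adjusted p = 0.117); it entered the test only through the controls, and the authors' deposited table gives an adjusted p of 0.0188. In both genes the groups did not overlap. Ugt2b34 overlapped, with 1.42 to 3.5 FPKM in mutants and 2.75 to 4.28 FPKM in controls. Ugt2b5 and Ugt2b38 share 41.7% and 37.4% of their 50-base words with other genes, largely each other, so reads may be divided between them.

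Ugt1a10, whose promoter is shown above, had 2.78, 2.2, 1.22 and 2.79 FPKM in mutants, against 5.62, 6.13 and 5.68 FPKM in controls. The controls were within a narrow band and all mutants were under it. The log2 fold change was -1.10 (SE 0.18, adjusted p = 0.0308), and without mutant replicate 3 it was -0.93 (adjusted p = 0.0112). Ugt1a2 showed a similar size but a wider spread, with 2.85, 2.19, 0.481 and 1.57 FPKM in mutants, against 4.21, 6.56 and 4.1 FPKM in controls, a difference of -1.16 (SE 0.32, adjusted p = 0.151), or -0.89 without mutant replicate 3 (adjusted p = 0.0908).

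The other 2 listed Ugt1a genes were under the low-value filter and were close in level between the groups. Ugt1a7c averaged 1.07 FPKM in mutants and 0.958 FPKM in controls, and Ugt1a9 averaged 0.392 FPKM in mutants and 0.368 FPKM in controls. The ratio of Ugt1a10 to Ugt1a7c was 3.07, 1.7, 1.54 and 2.16 in mutants, against 5.9, 6.14 and 6.15 in controls, a pair chosen after its values were seen. The 4 genes share 53.7% to 63.7% of their 50-base words with other Ugt1a genes, and how reads in common exons were assigned is not given in the sources used here, so the values of single Ugt1a genes are uncertain.

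Ugt8a, which makes galactosylceramide and is the one listed UGT outside the detoxifying groups, had 2.59, 2.5, 1.79 and 2.89 FPKM in mutants, against 3.2, 3.67 and 3.12 FPKM in controls. No mutant reached a control, and the difference of -0.34 (SE 0.12, adjusted p = 0.23) did not pass the test; without mutant replicate 3 it was -0.24 (adjusted p = 0.286).

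Among the CYP genes of fatty acid and eicosanoid metabolism, 2 of 8 tested fell, where 1.05% of all tested genes fell. Both were from the row of Cyp2j genes, and Cyp2j13 entered the test only through the controls. Cyp2j5 is an arachidonic acid epoxygenase known from mouse kidney. It had 1.28, 1.13, 0.37 and 1.12 FPKM in mutants, against 3.73, 5.32 and 2.91 FPKM in controls, from 162, 124, 40 and 135 reads in mutants and 612, 746 and 280 reads in controls. All mutants were below all controls, with mutant replicate 3 far below the other mutants. The log2 fold change was -1.33 (SE 0.21, adjusted p = 0.0308); without mutant replicate 3 it was -1.17 (adjusted p = 0.0236). On the FPKM scale the control mean was 4.08 times the mutant mean, the widest ratio among the 5 changed genes.

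Cyp2j13 was lower throughout and scarce. It had 0.439, 0.442, 0.171 and 0.416 FPKM in mutants, against 1.02, 1.15 and 1.02 FPKM in controls, from 37 to 111 reads in mutants and 197 to 336 reads in controls. Mutant replicates 1, 2 and 4 were nearly equal and mutant replicate 3 was lowest. The log2 fold change was -0.60 (SE 0.10, adjusted p = 0.0314), and without mutant replicate 3 it was -0.53 (adjusted p = 0.0355). It passed the low-value filter through the controls alone.

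Cyp2j11, another gene of that row, was under the filter and is named because the authors' deposited table gives it an adjusted p of 4.21e-05. It had 0.358, 0.323, 0.181 and 0.315 FPKM in mutants, against 0.881, 0.872 and 1.05 FPKM in controls. With no filter in limma its log2 fold change was -0.58 (adjusted p = 0.00788). Cyp2j6 and Cyp2j9 of the same row showed another picture. Cyp2j6 had 6.28, 5.95, 5 and 5.74 FPKM in mutants, against 5.67, 5.71 and 4.96 FPKM in controls, so that the groups overlapped; its log2 difference was 0.06 (SE 0.088). Cyp2j9 averaged 0.889 FPKM in mutants and 0.862 FPKM in controls and was not tested.

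The row holds 8 Cyp2j genes, of which these 5 were listed. The ratio of Cyp2j5 to Cyp2j6 was 0.204, 0.19, 0.0741 and 0.195 in mutants, against 0.659, 0.931 and 0.586 in controls, a pair chosen after its values were seen. Each of the 5 shares at most 1.34% of its 50-base words with any other gene.

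The CYP4 genes, mostly omega-hydroxylases of fatty acids, gave no limma call among 5 tested (1 lower and 2 higher at an unadjusted p under 0.05). Cyp4a31 had 7.17, 8.09, 3.51 and 7.49 FPKM in mutants, against 12.9, 12.7 and 9.4 FPKM in controls. Mutants and controls were separate; the log2 difference was -0.78 (SE 0.25, adjusted p = 0.198), or -0.55 without mutant replicate 3 (adjusted p = 0.0882), and the authors' deposited table gives an adjusted p of 0.0164. Cyp4b1 was separate in the other direction, with 1.03 to 1.43 FPKM in mutants and 0.656 to 0.963 FPKM in controls, and it passed the filter through the mutants. Cyp4f13, Cyp4f16 and Cyp4f17, which oxidize eicosanoids and long-chain fatty acids, had differences from 0.05 to 0.21, and their groups overlapped.

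The 1 gene that rose was Cyp7b1, the oxysterol hydroxylase of the acidic bile acid pathway. It had 12.6, 13, 11.1 and 12.4 FPKM in mutants, against 8.08, 8.72 and 8.04 FPKM in controls. Both groups were tight and separate, and mutant replicate 3 was only slightly under the other mutants. The log2 fold change was 0.51 (SE 0.072, adjusted p = 0.0175), the mutant mean being 1.48 times the control mean; without mutant replicate 3 it was 0.56 (adjusted p = 0.016). Cyp39a1, another oxysterol hydroxylase, had 7.97 to 9.89 FPKM in mutants and 7.12 to 8.24 FPKM in controls, a difference of 0.21 (adjusted p = 0.309). Cyp46a1, the cholesterol hydroxylase best known from neurons, had 0.739 to 1.79 FPKM in mutants and 0.908 to 2.28 FPKM in controls, overlapping widely.

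For each of the 5 changed genes the exact two-sided permutation test of mean FPKM gave p = 0.0286, the smallest that 35 splits allow. Leaving out mutant replicate 1 or 3 kept all 5 calls. None was called without control replicate 1, control replicate 2, mutant replicate 2 or mutant replicate 4, and of the 5 Cyp2j5 alone was called without control replicate 3; Cyp2j13 missed the low-value filter and was not tested whenever a control was left out. The fold changes moved less than the calls: over the 7 leave-outs Cyp2j5 ran from -1.50 to -1.15, Ugt2b37 from -1.52 to -1.19, Ugt1a10 from -1.19 to -0.93 and Cyp7b1 from 0.49 to 0.56. With a pseudocount of 0.1 the 4 falls had adjusted p of 0.0567 to 0.0637 and Cyp7b1 had 0.021, and Ugt2b37 also missed the threshold with a minimum of 5 FPKM (adjusted p = 0.0593) and with quantile normalization (adjusted p = 0.0507).

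**Figure D3:**
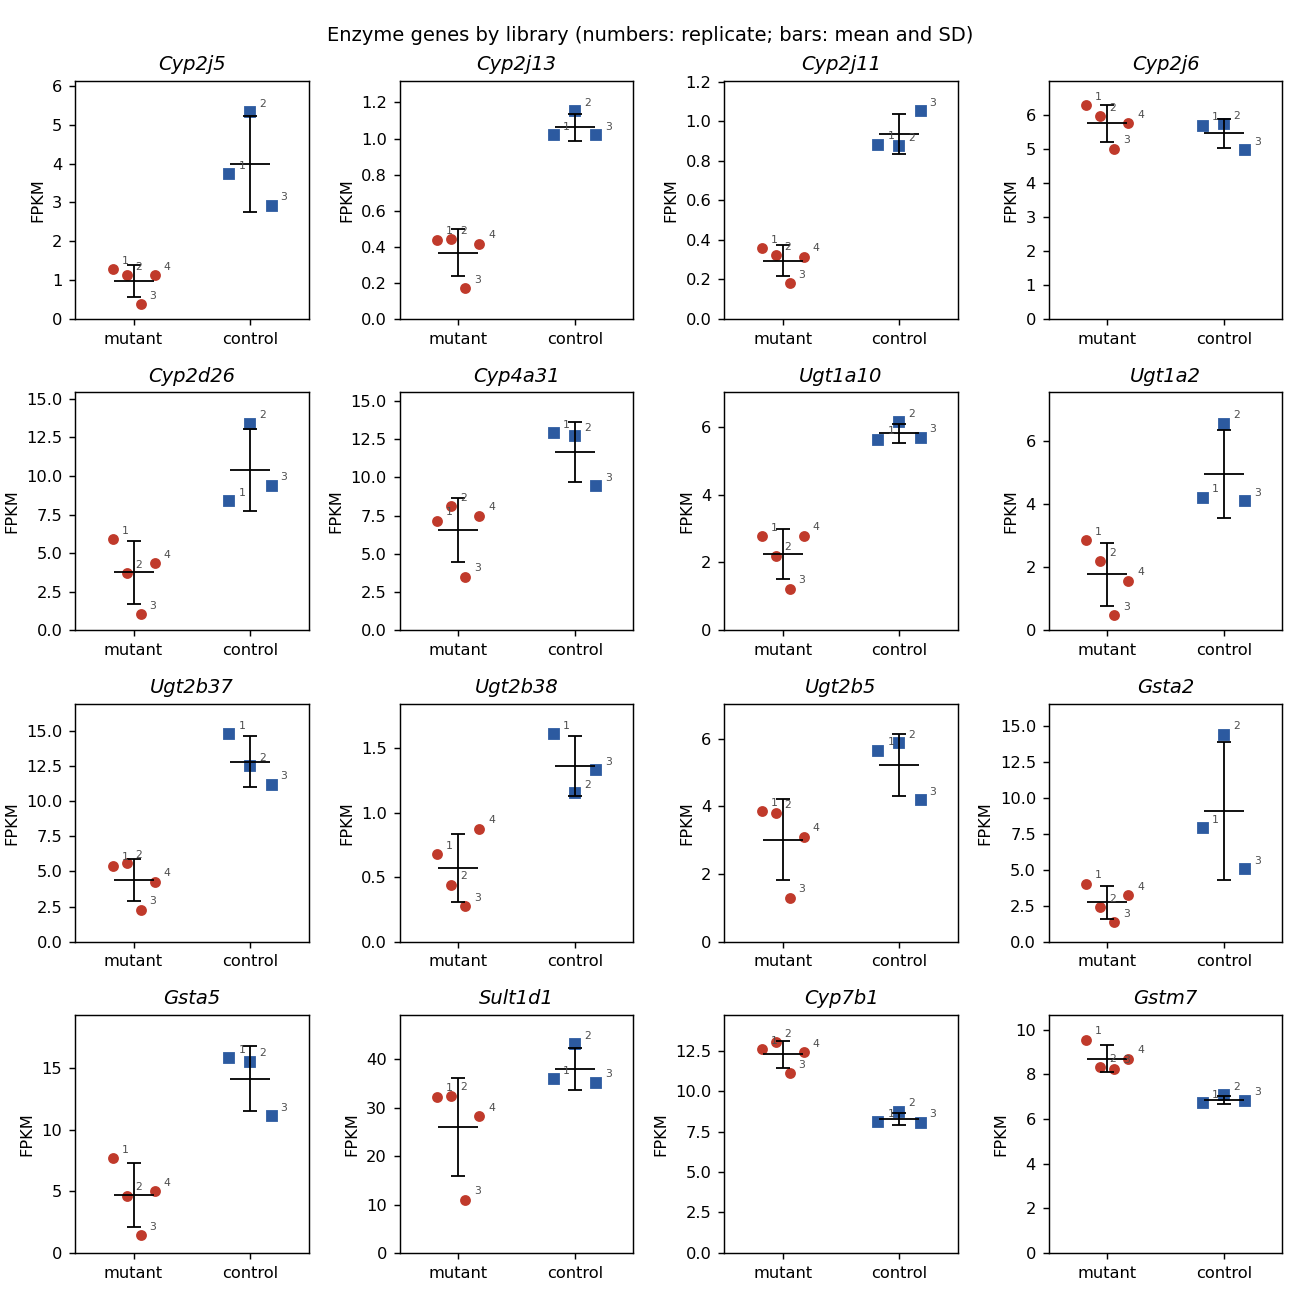
FPKM of 16 enzyme genes in each library, with mean and SD; circles are mutants, squares controls, and small numbers are replicates. Mutant replicate 3 is lowest for Cyp2j5, Ugt2b37 and Sult1d1, while Cyp2j6 overlaps between the groups and Cyp7b1 is higher in every mutant.

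Of the CYP genes of xenobiotic metabolism, none of 4 tested passed in limma (1 lower and 0 higher at an unadjusted p under 0.05) or in the authors' deposited table. Cyp2d26, of the drug-oxidizing CYP2D group, had 5.91, 3.68, 1.03 and 4.36 FPKM in mutants, against 8.37, 13.4 and 9.38 FPKM in controls. Mutants and controls were separate but widely spread, and the difference was -1.37 (SE 0.41, adjusted p = 0.191), or -1.01 without mutant replicate 3 (adjusted p = 0.0705). Cyp2d22, from the same row of genes, averaged 3.46 FPKM in mutants and 3.28 FPKM in controls. Cyp1b1, a target of the aryl hydrocarbon receptor, had 6.37 to 7.72 FPKM in mutants and 6.58 to 8.57 FPKM in controls, and its small difference of -0.07 became 0.02 without control replicate 1. Cyp2s1 averaged 3.64 FPKM in mutants and 3.7 FPKM in controls.

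The CYP genes of hormone and vitamin metabolism were low in this tissue at this stage. Cyp27a1, a mitochondrial sterol hydroxylase that also acts on vitamin D, averaged 2.07 ± 0.289 FPKM in mutants and 1.99 ± 0.126 FPKM in controls, and was the one gene of the vitamin D group that was tested. Cyp24a1, which breaks down active vitamin D, averaged 0.135 FPKM in mutants and 0.224 FPKM in controls. Cyp26a1, which breaks down retinoic acid, averaged 0.599 FPKM in mutants and 0.566 FPKM in controls. Cyp11a1, which starts steroid hormone synthesis and is the 1 listed gene of that group, averaged 0.347 FPKM in mutants and 0.243 FPKM in controls. Cyp20a1 overlapped, with 19.6 to 23 FPKM in mutants and 18.6 to 21.2 FPKM in controls.

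With limma, no GST gene was called among 16 tested (2 lower and 3 higher at an unadjusted p under 0.05), while the authors' deposited table calls 1 lower and 1 higher; the median difference was 0.07. The summed GST level was 537, 453, 383 and 445 FPKM in mutants, against 416, 466 and 414 FPKM in controls, so that the groups overlapped. In the alpha class the members parted. Gsta5 had 7.7, 4.65, 1.44 and 5.02 FPKM in mutants, against 11.1 to 15.8 FPKM in the 3 controls, so that no library crossed between the groups. Its difference of -1.53 was the lowest of the 44 tested genes (SE 0.41, adjusted p = 0.149), and without mutant replicate 3 it was -1.16 (adjusted p = 0.0481).

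Gsta2 had 4.04, 2.4, 1.35 and 3.21 FPKM in mutants, against 7.88, 14.4 and 5.05 FPKM in controls. The values did not overlap, but control replicate 2 lay far above the other controls, and the difference was -1.38 (SE 0.37, adjusted p = 0.141), or -1.17 without mutant replicate 3 (adjusted p = 0.217); the authors' deposited table gives an adjusted p of 0.000308. Gsta5 and Gsta2 share 49.4% and 49.8% of their 50-base words with other genes, among them each other and Gsta1, so their reads may not be told apart. Gsta4 and Gsta3 averaged 58.7 and 5.45 FPKM in mutants and 50.6 and 4.98 FPKM in controls, with overlapping groups. The ratio of Gsta5 to Gsta4 was 0.114, 0.0796, 0.0266 and 0.0922 in mutants, against 0.315, 0.325 and 0.204 in controls, again a pair chosen after its values were seen.

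In the mu class 4 of 5 tested genes were above 0 and none was called. Gstm7 had 9.54, 8.32, 8.25 and 8.7 FPKM in mutants, against 6.7, 7.05 and 6.81 FPKM in controls. All mutants were above all controls, and the difference was 0.30 (SE 0.071, adjusted p = 0.0785). The authors' deposited table gives it an adjusted p of 0.0305. Gstm2 had 32.1 to 41.4 FPKM in mutants and 23.7 to 31 FPKM in controls, a difference of 0.35 that did not pass the test. Gstm5 had 39.9 to 54.7 FPKM in mutants and 40.8 to 50.4 FPKM in controls, and Gstm4 had 6.54 to 7.21 FPKM in mutants and 6.05 to 7.53 FPKM in controls, a difference of -0.02.

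The most abundant gene, Gstp1, had 216, 176, 139 and 182 FPKM in mutants, against 152, 175 and 146 FPKM in controls. The groups overlapped, and 33.7% of its 50-base words are also in Gstp2. Gsto1, which reduces dehydroascorbate, had 28.1 to 35.2 FPKM in mutants and 31.7 to 36.9 FPKM in controls. Gstz1, an isomerase of tyrosine breakdown, had 16.1 to 19.6 FPKM in mutants and 19 to 21.3 FPKM in controls. Gstk1, the kappa-class enzyme of mitochondria and peroxisomes, had 11.1 to 17 FPKM in mutants and 11.6 to 13 FPKM in controls. Gstt3, the leading theta-class gene, had 6.99 to 7.97 FPKM in mutants and 5.27 to 7.78 FPKM in controls.

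Of the SULT genes 4 were tested with limma and none was called (0 lower and 1 higher at an unadjusted p under 0.05), and the authors' deposited table calls none. Sult1d1 had 32.3, 32.5, 11 and 28.3 FPKM in mutants, against 35.9, 43.1 and 35.2 FPKM in controls. The groups did not overlap, but mutant replicates 1, 2 and 4 lay just under the controls and mutant replicate 3 far below. The difference was -0.64 (SE 0.37, adjusted p = 0.557), and the exact permutation test gave p = 0.0857. Without mutant replicate 3 the difference was -0.28 (adjusted p = 0.24). Sult1e1, the estrogen sulfotransferase next to it, was separate in the other direction, with 1.05, 1.19, 1.31 and 0.722 FPKM in mutants, against 0.714, 0.471 and 0.49 FPKM in controls; the difference was 0.40 (SE 0.12, adjusted p = 0.15), and it passed the filter through the mutants. Sult5a1 had 0.837 to 1.58 FPKM in mutants and 0.792 to 1.21 FPKM in controls. Sult2b1, which sulfates cholesterol, and Sult4a1, a brain-enriched member, stayed under 0.5 FPKM in every library.

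**Figure D4:**
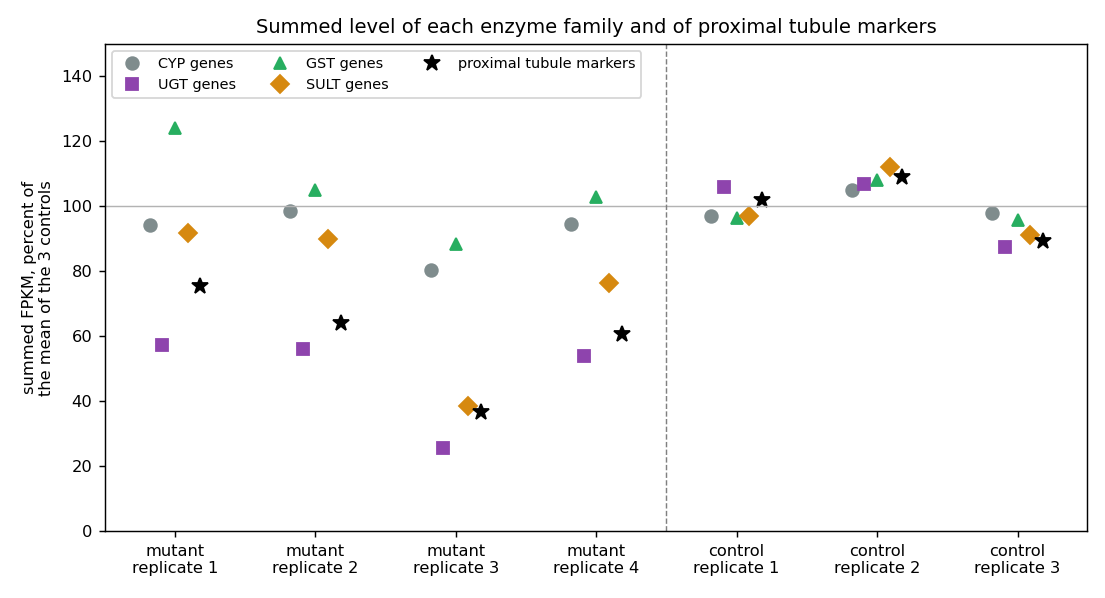
Summed FPKM of each enzyme family and of 23 proximal tubule markers in each library, as a percentage of the mean of the 3 controls (line at 100). UGT genes stand at 57.4, 56.2, 25.6 and 54.1 in the mutants and proximal markers at 75.6, 64.1, 36.6 and 60.6. GST genes stand at 124, 105, 88.6 and 103, CYP genes at 80.4 to 98.5 and SULT genes at 38.6 to 91.7.

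Set against the summed proximal tubule markers of the same library, the families took different places. UGT genes came to 11%, 12.7%, 10.1% and 12.9% of the marker sum in mutants, against 15%, 14.2% and 14.2% in controls, so that every mutant was below every control. The other families lay the other way, with every mutant above every control. CYP genes came to 49% to 86.1% of the marker sum in mutants and 37.4% to 43.1% in controls. GST genes came to 265% to 392% in mutants and 153% to 174% in controls, and SULT genes to 17.3% to 23% in mutants and 15.6% to 16.9% in controls. The marker sum itself stood at 36.6% to 75.6% of its control mean in mutants, so a family of unchanged level rises on this ratio. Against their own control means, the mutants held 80.4% to 98.5% for CYP, 88.6% to 124% for GST and 38.6% to 91.7% for SULT genes. Ugt2b37 came to 2.69%, 3.26%, 2.34% and 2.64% of the marker sum in mutants, against 5.46%, 4.32% and 4.73% in controls. Cyp2j5 came to 0.637%, 0.662%, 0.38% and 0.695% in mutants, against 1.37%, 1.84% and 1.22% in controls. On this ratio both genes were lower in every mutant. Both were among the genes already called lower in these libraries, so the ratio is no separate support.

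Ugt1a10 was also lower in every mutant on this ratio, with 1.25% to 1.73% in mutants and 2.07% to 2.39% in controls. The same held for Gsta5 and Cyp2d26, which limma did not call in the comparison of all libraries. Gsta5 came to 1.48% to 3.82% in mutants and 4.66% to 5.8% in controls. Cyp2d26 came to 1.06% to 2.93% in mutants and 3.08% to 4.63% in controls. Sult1d1 and Cyp4a31 did not part in that way. Sult1d1 came to 16.1%, 19%, 11.2% and 17.5% of the marker sum in mutants, against 13.2%, 14.9% and 14.8% in controls. Cyp4a31 came to 3.56%, 4.74%, 3.6% and 4.64% in mutants, against 4.76%, 4.4% and 3.96% in controls. In both the groups overlapped, with mutant replicate 3 at 11.2% of the marker sum for Sult1d1, below the other mutants. These ratios are a description and carry no test.

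Few of the genes that serve the enzymes were called by limma, which called 1.53% of all tested genes. At an unadjusted p under 0.05 it counted 8.48% of all tested genes lower and 5.26% higher. With limma, none of 11 tested genes of electron transfer to CYP enzymes was called (1 lower and 0 higher at an unadjusted p under 0.05); Por, the reductase of microsomal CYP enzymes, averaged 28.1 FPKM in mutants and 26.9 FPKM in controls. Fdx1, which feeds mitochondrial CYP enzymes, averaged 4.82 ± 1.07 FPKM in mutants and 8.22 ± 0.706 FPKM in controls, a difference of -0.68 (SE 0.14, adjusted p = 0.0523), and it is the 1 gene of that list that the authors' deposited table calls lower (adjusted p = 0.000525). None of 12 tested genes supplying cofactors to UGT and SULT enzymes was called by limma (1 lower and 2 higher at an unadjusted p under 0.05) or by the authors' deposited table, and Ugdh, which makes UDP-glucuronic acid, averaged 38.6 FPKM in mutants and 33.7 FPKM in controls.

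With limma, none of 19 tested genes of glutathione synthesis and turnover was called (6 lower and 0 higher at an unadjusted p under 0.05), with 16 below 0 and a median of -0.07. The authors' deposited table calls 4 of the 24 listed lower, namely Ggt1, Anpep, Gclm and Abcc2, where it calls 3.74% of all genes lower. Ggt1, which splits glutathione at the brush border of the proximal tubule, had 22.4, 16.3, 8.89 and 15.6 FPKM in mutants, against 30.9, 33.9 and 29.2 FPKM in controls. The groups did not overlap, and the difference was -1.01 (SE 0.26, adjusted p = 0.129); the adjusted p in the authors' deposited table is 0.001. Among 18 tested genes of other detoxification routes 1 fell, Acsm2, a medium-chain acyl-CoA synthetase of the proximal tubule: it averaged 2.88 ± 0.621 FPKM in mutants and 6.16 ± 0.325 FPKM in controls, a difference of -0.90 (SE 0.13, adjusted p = 0.0191). At an unadjusted p under 0.05, limma counted 3 of the 18 lower and 4 higher. The authors' deposited table calls 2 of the 23 listed lower, Acsm2 and Fmo1, and 0 higher.

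Of 15 tested regulators limma called 1, which fell (6 lower and 2 higher at an unadjusted p under 0.05). The authors' deposited table calls 5 of the 19 listed lower, namely Vdr, Hnf4a, Ppara, Cebpa and Cebpb, and 1 higher, Foxa1. Of all genes it calls 3.74% lower and 1.75% higher. Vdr, the vitamin D receptor, had 1.88, 1.67, 1.29 and 1.53 FPKM in mutants, against 3.21, 2.91 and 2.59 FPKM in controls, a difference of -0.59 (SE 0.10, adjusted p = 0.0333). Hnf4a, a nuclear receptor of proximal tubule and liver, averaged 21.3 ± 3.52 FPKM in mutants and 30.9 ± 1.38 FPKM in controls, a difference of -0.53 (SE 0.12, adjusted p = 0.0783). The authors' deposited table gives Hnf4a an adjusted p of 0.00313. Nfe2l2, the NRF2 factor of the oxidative stress response, averaged 21.2 FPKM in mutants and 19.6 FPKM in controls, and Ahr, the aryl hydrocarbon receptor, averaged 4.68 FPKM in mutants and 4.35 FPKM in controls.

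The remaining genes under the filter, 18 with Cyp2j11, had mean levels of 0.173 to 1.02 FPKM over the 7 libraries from 13 to 281 reads per library. For 1 of them, Cyp2j11, mutants were lower and groups did not overlap, and for 1, Cyp4v3, mutants were higher and groups did not overlap. Counting all 62 genes, the authors' deposited table calls 8 lower (12.9%), where it calls 3.74% of all genes lower, and 2 higher, where it calls 1.75% higher.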

How the data were processed

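RNA-seq was done on whole kidneys in 7 libraries, and sample titles gave each one's group and number. Per the labels' protocols, libraries were made with a directional kit. The submitters' processing notes name the build GRCm39 and, without their roles, STAR 2.6.0c, HTSeq 0.6.1p2, Trim Galore 0.5.0 and FastQC 0.11.5. The strand setting is not given in the sources used here. The authors deposited 1 table with an FPKM value per gene and library, and, per the file headers, the columns of their DESeq2 comparison. Of these, the deposited baseMean is a normalized signal, the mean of normalized counts; the deposited log2 fold change has its standard error; the deposited test statistic is a score; and the deposited p-value comes raw and adjusted. The deposited values were copied and named as the authors'. The lowest baseMean is 18.5, so scarcer genes are not analysed here, and 14 genes have no deposited adjusted p.

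Genes with at least 1 FPKM in at least 3 libraries (13466; 2701 left out) were put on the log2(FPKM + 1) scale. Mutants and controls were compared two-sided with limma 3.58.1, run in R 4.3.3 with a trended and robust empirical Bayes step, and p was adjusted by Benjamini and Hochberg over all tested genes. Single genes were also compared by an exact two-sided permutation test over 35 splits. Reads per gene were recovered from baseMean, FPKM and size factors; 100% were within 0.05 of a whole number. They give the depth, and counting error is only part of the spread. A small number of reads limits precision: Cyp2j5 had 40 reads in its scarcest library.

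The members and lists were chosen with earlier results of these data known. Named genes are the changed members, the most abundant member of each subfamily, tested members with separate groups and a log2 fold change of at least 0.5, members under the filter that the deposited test calls, and changed genes of the supporting lists; the others named were chosen after their values were seen. Shared 50-base words and gene rows were read from GENCODE M21, which is on another build, so it gave no coordinates; all 62 genes were found in it. Promoters are RefSeq on GRCm38.p6. A planned motif and a listed regulator are not reported here. The pipeline was tested on simulated data. Python 3.11.15 with numpy 2.4.6, scipy 1.17.1, pandas 2.3.3 and matplotlib 3.10.9 made tables and plots. The alternatives are given in the closing section.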

Additional observations from a re-analysis of the deposited data

Results flagged for a closer look

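In groups of 4 libraries, a sample is named here where its gap to the nearest other sample, divided by the range of the group, passes Dixon's critical value; chance does so in about 1 of 20 groups. Of 37 groups examined, 3 passed it. For Cyp2j13, mutant replicate 3 was the lowest mutant (0.171 FPKM, against 0.416 to 0.442 FPKM in the other mutants), with a ratio of 0.902. For the summed UGT genes, mutant replicate 3 was again the lowest mutant (9.84 FPKM, against 20.8 to 22.1 FPKM in the other mutants), with a ratio of 0.894. For Sult4a1, mutant replicate 2 was the highest mutant (0.468 FPKM, against 0.303 to 0.32 FPKM in the other mutants), with a ratio of 0.896.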

How the results depend on the processing

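With 4 enzyme genes lower, 1 higher and 206 genes called in all as the base, a pseudocount of 0.1 gave 0, 1 and 109; the adjusted p of the 4 lower genes were then 0.0567 to 0.0637. A minimum of 5 FPKM, which tests fewer genes, gave 1, 1 and 60, and 51.7% of its calls were higher, against 31.1% in the base. Quantile normalization gave 3, 1 and 174, with 40.8% higher and Ugt2b37 lost (adjusted p = 0.0507). Array weights gave 9, 4 and 1302, and the deposited test gave 8, 2 and 886. With the replicate block the counts were 0, 0 and 2. In their deviations from the group means, mutants and controls of the same number correlated at -0.156, 0.028 and 0.098. Those of different numbers ran from -0.253 to 0.141. With means over only 4 and 3 libraries, these values cannot decide whether the numbers pair the samples. At an unadjusted p under 0.05, the block gave 14 of the 44 enzyme genes lower and 5 higher in limma, where 6.84% of all tested genes were lower and 3.42% higher. Leaving out each library in turn gave 0 to 5 lower, 0 to 1 higher and 11 to 486 in all; the causes were not tested. No filter, median-of-ratios size factors, limma without trend and robust steps and limma-voom on recovered counts stayed within 1.5 times of the base, and all kept the 5 calls.

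Of the 27 named genes tested, 3 changed direction under some setting, all with small differences. Cyp1b1 went between -0.15 and 0.02 when libraries were left out, positive without control replicate 1. Cyp27a1 was -0.05 with array weights and went between -0.01 and 0.09 when libraries were left out, negative without mutant replicate 3. Gstm5 was -0.04 with array weights and went between -0.06 and 0.09 when libraries were left out, negative without control replicate 1 and without mutant replicate 1. Changes in the scarce genes are limited by their reads and by the pseudocount.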
